A study of Homo sapiens with 20 samples.

Results

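Of the 57820 genes counted in human T47D breast cancer cells, the 9 genes described here encode enzymes that make, activate, inactivate or hydroxylate steroid hormones: HSD11B2, HSD17B1, HSD17B2, HSD17B4, HSD17B12, STS, SULT2B1, CYP1A1 and CYP1B1. They were chosen by symbol, and all 9 passed the filter on low counts that left 18806 genes for testing. T47D is a hormone-responsive luminal line in which R5020, a synthetic progestin, acts through the progesterone receptor.

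Cells were transfected with siRNA against BRG1 (the ATPase of the SWI/SNF chromatin remodelling complex, gene SMARCA4), CBX3 (heterochromatin protein HP1 gamma) or FOXA1 (a pioneer transcription factor of luminal cells), or with a control siRNA. RNA was sequenced after 6 h of 10 nM R5020 or at 0 h, with 2 libraries in each of the 8 groups, which gives 16 libraries. The groups shared a medium with charcoal-stripped serum and then a night without serum, except that the labels give no protocol for the first si-CBX3 library at 0 h. One library of cells without siRNA was made at each of the same times, and BRG1 was mapped by ChIP-seq in such cells after 30 min of R5020 and at 0 min, with 1 peak list each.

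The 16 libraries held 50017255 to 74374857 assigned fragments. Each siRNA lowered its target at 0 h: SMARCA4 was at 5.44 ± 0.647 CPM (counts scaled to a common library size) in si-BRG1 and 71.1 ± 7.68 CPM in si-control, CBX3 at 6.58 ± 0.299 CPM in si-CBX3 and 254 ± 17.4 CPM in si-control, and FOXA1 at 62.1 ± 0.974 CPM in si-FOXA1 and 398.5 ± 13.4 CPM in si-control (SD, n = 2 each). Counts of si-CBX3 and si-FOXA1 came from one counting command and those of si-BRG1 and si-control from another. The headers give both the same program version, strand setting and annotation, and differ in the number of threads (1 and 8). An effect of si-CBX3 or si-FOXA1 against si-control cannot be told apart from any difference between these sets of libraries. SMARCA4, which neither siRNA targets, was 2.53-fold higher in si-CBX3 and 2.60-fold higher in si-FOXA1 than in si-control at 0 h. The 10 luminal markers summed to between 8385 and 13161 CPM in every library, while the 6 basal markers summed to 7.43 to 46.5 CPM, the 6 fibroblast markers to 22.2 to 60.5 CPM, the leukocyte markers to at most 1.76 CPM and the endothelial ones to at most 0.974 CPM. Nothing in the labels says that the libraries of a group came from separate cultures, so the p-values measure the spread between these libraries, which may be technical.

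Steroid potency in a target cell is set partly by local enzymes. 17-beta-hydroxysteroid dehydrogenases convert oestrone and oestradiol into each other, steroid sulfatase releases steroids from their sulfate store, sulfotransferases return them to it, and 11-beta-hydroxysteroid dehydrogenase type 2 turns cortisol into inactive cortisone. The cytochromes CYP1A1 and CYP1B1 hydroxylate oestradiol to catechol oestrogens and are classical targets of the aryl hydrocarbon receptor, a ligand-activated factor that binds DNA with ARNT at sites with the core GCGTG.

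Upstream sequence from RefSeq (GRCh38.p14, whereas the deposited counts and peaks use hg19) is shown for 3 members that stand for 3 behaviours in these data: CYP1A1, which rose with R5020 under every siRNA, SULT2B1, which fell with R5020 under each of the knockdowns, and HSD17B4, whose response was small. Each run gives the 250 bases before the annotated start, 5′ to 3′ on the gene's strand, with GCGTG or its reverse complement CACGC in capitals. CYP1A1 lies at chr15:74725529-74725778 on the minus strand, SULT2B1 at chr19:48551922-48552171 on the plus strand and HSD17B4 at chr5:119452247-119452496 on the plus strand.
CYP1A1: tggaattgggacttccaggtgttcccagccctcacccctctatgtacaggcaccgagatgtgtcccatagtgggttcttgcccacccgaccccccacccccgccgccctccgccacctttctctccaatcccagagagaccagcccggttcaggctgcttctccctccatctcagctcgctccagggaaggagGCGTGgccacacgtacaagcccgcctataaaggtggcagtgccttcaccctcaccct
SULT2B1: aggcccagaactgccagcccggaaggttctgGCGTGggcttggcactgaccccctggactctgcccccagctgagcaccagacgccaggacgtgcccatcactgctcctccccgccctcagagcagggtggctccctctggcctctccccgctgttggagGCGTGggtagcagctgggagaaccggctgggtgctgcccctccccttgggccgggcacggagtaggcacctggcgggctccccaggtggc
HSD17B4: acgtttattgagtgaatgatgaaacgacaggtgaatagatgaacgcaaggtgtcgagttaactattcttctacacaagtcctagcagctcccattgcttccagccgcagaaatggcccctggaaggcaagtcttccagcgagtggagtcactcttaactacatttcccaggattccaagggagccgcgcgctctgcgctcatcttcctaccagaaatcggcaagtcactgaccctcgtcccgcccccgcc
The core begins 57 bases before the start in CYP1A1 and 219 and 90 bases before it in SULT2B1, and the HSD17B4 run has no match. Among all 35116 promoter windows of 250 bases before to 50 after a start, 36.5% hold at least 1 match on either strand. The palindromic steroid receptor site, found in 0.39% of all windows, and its single arm TGTTCT (reverse complement AGAACA), found in 14.8%, had no match in these 3 members. STS, the other member with windows, has 5 of them: the single arm begins 105 bases before the start in one and close to the upstream end of another, and GCGTG or CACGC begins 91 and 47 bases before the start in one window each. A match describes letters only and does not show binding.

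After 6 h of R5020, HSD11B2 rose between 6.61-fold and 8.34-fold under all 4 siRNAs and CYP1A1 and CYP1B1 rose under all 4 by very different amounts, while STS fell under all 4. In si-BRG1, 4 members rose and 2 fell, where 18.6% of all genes tested rose and 17.1% fell (35.7% were called in either direction). In si-CBX3, 5 rose and 2 fell, beside 20.4% and 20.5% of all genes (41.0% called). In si-FOXA1, 4 rose and 4 fell, beside 19.1% and 19.6% (38.8% called). In si-control, 4 rose and 2 fell, beside 19.5% and 18.1% (37.6% called). A call is an adjusted p below 0.05 in edgeR's quasi-likelihood test with Benjamini-Hochberg adjustment over all genes tested. The median log2 change over the 9 members was 0.16 in si-BRG1 (-0.03 over all genes), 0.48 in si-CBX3 (-0.03), -0.15 in si-FOXA1 (-0.04) and 0.35 in si-control (-0.02). Leaving out 1 library at a time gave 5 to 7 called members in si-BRG1, 6 to 7 in si-CBX3, 5 to 8 in si-FOXA1 and 4 to 6 in si-control.

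**Figure D1:**
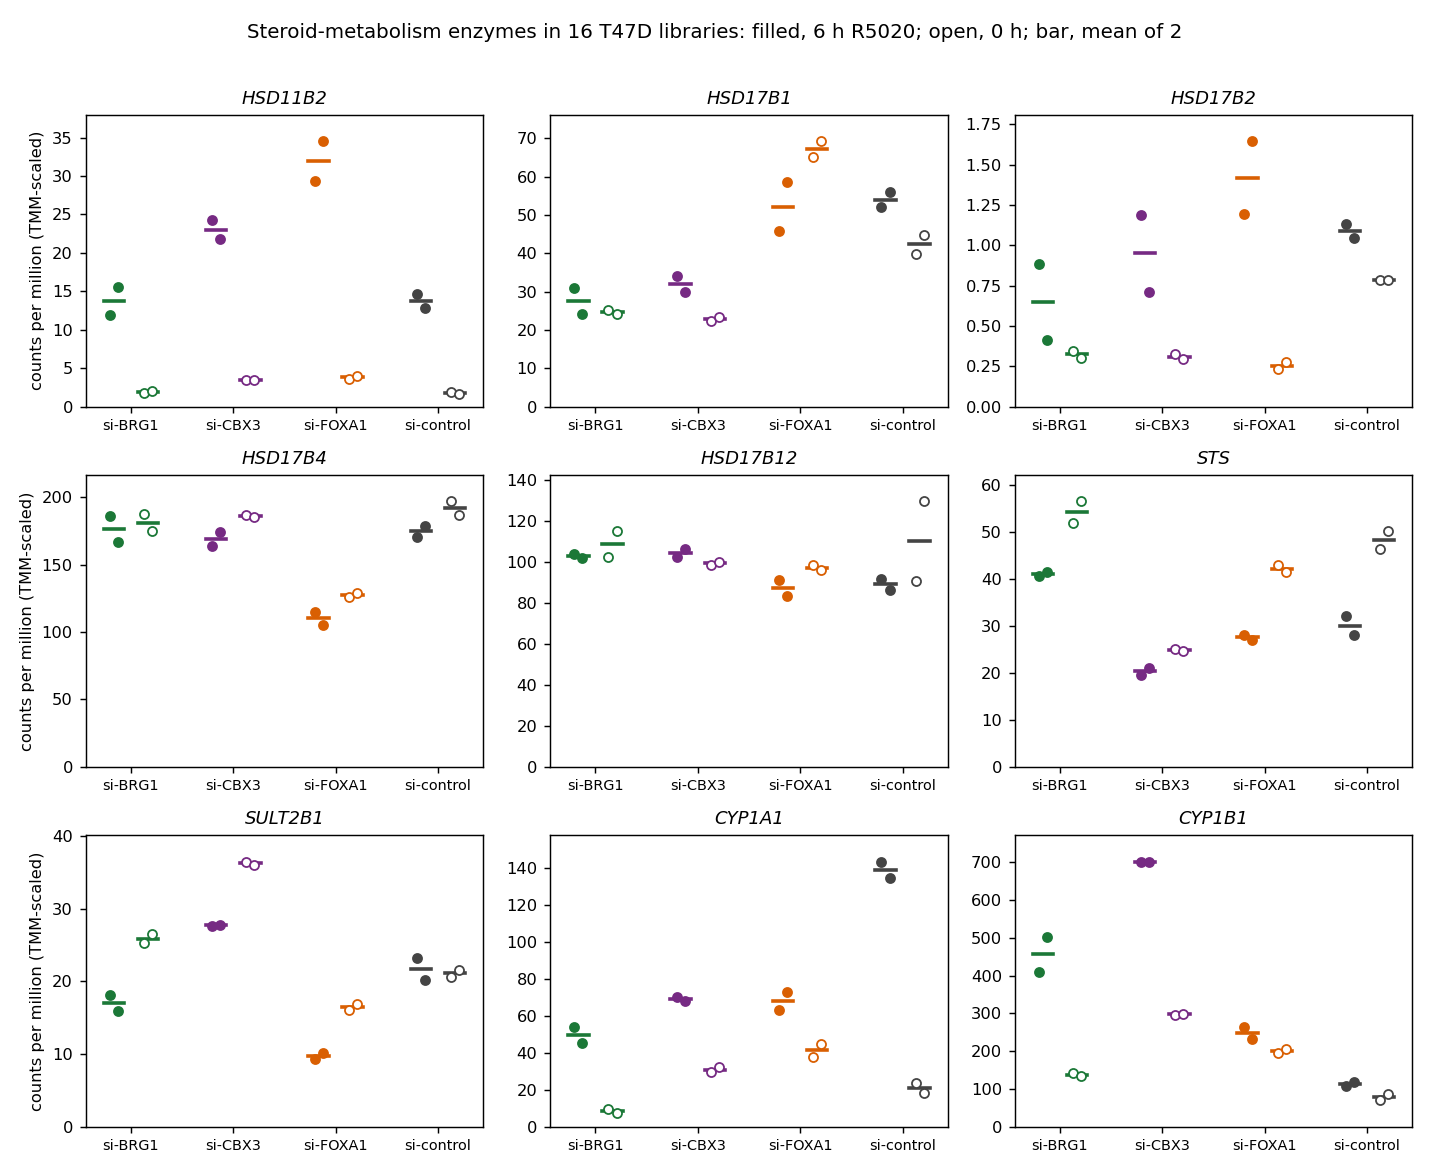
CPM scaled by TMM (y axis, linear from 0) of each enzyme in the 16 siRNA libraries, with 6 h of R5020 (filled) left of 0 h (open) for each siRNA; points are libraries and bars means of 2. CYP1A1 reached 134 to 144 CPM in the treated si-control libraries and at most 72.7 CPM in any other library, and CYP1B1 was at 700.3 and 701 CPM in the treated si-CBX3 libraries and at most 502 CPM in any other.

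HSD11B2, the enzyme that inactivates cortisol and so shields the mineralocorticoid receptor, had the largest R5020 response of the 9 members in si-control. After 6 h it stood at 12.0 and 15.5 CPM in si-BRG1, 24.3 and 21.8 CPM in si-CBX3, 29.4 and 34.5 CPM in si-FOXA1 and 14.7 and 12.9 CPM in si-control. Untreated libraries had 1.78 and 2.01 CPM in si-BRG1, 3.46 and 3.503 CPM in si-CBX3, 3.64 and 4.03 CPM in si-FOXA1 and 1.88 and 1.64 CPM in si-control. Every treated library was above every untreated one, and at both times the si-FOXA1 and si-CBX3 libraries lay above the overlapping si-BRG1 and si-control libraries. The log2 change with R5020 was 2.86 ± 0.15 in si-BRG1 (SE, adjusted p = 8.4e-11), 2.73 ± 0.14 in si-CBX3 (adjusted p = 5.51e-11), 3.06 ± 0.13 in si-FOXA1 (adjusted p = 1.71e-11) and 2.96 ± 0.15 in si-control (adjusted p = 8.13e-11).

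None of the knockdowns changed this response detectably. The response minus that in si-control was -0.10 on the log2 scale in si-BRG1 (95% interval -0.55 to 0.35, adjusted p = 0.83), -0.24 in si-CBX3 (-0.67 to 0.19, adjusted p = 0.549) and 0.10 in si-FOXA1 (-0.34 to 0.53, adjusted p = 0.77). The basal level at 0 h was 1.97-fold higher in si-CBX3 than in si-control (adjusted p = 7.48e-05) and 2.17-fold higher in si-FOXA1 (adjusted p = 8.5e-06), whereas the si-BRG1 and si-control values overlapped (adjusted p = 0.716). A transcript on the same strand, ENSG00000203401.4, overlaps 2337 bases of HSD11B2 and had 6 to 489 fragments, against 96 to 2077 for HSD11B2, so assignment between them is uncertain. In cells without siRNA, HSD11B2 was at 10.3 RPKM after 6 h and 1.43 RPKM at 0 h, with no replicate. The size of the rise depended on the measure, with a log2 ratio of 2.22 in RPKM with a pseudocount of 1 and of 3.61 (12.2-fold) in CPM of estimated reads. At 0 h the 540-base transcript ENST00000567684.2 held 0.747 of the 1.43 RPKM but 29.1% of the reads.

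CYP1A1 rose with R5020 under every siRNA, with the smallest fold in si-FOXA1. The 6 h values were 53.8 and 45.3 CPM in si-BRG1, 70.3 and 68.0 CPM in si-CBX3, 63.1 and 72.7 CPM in si-FOXA1 and 143.5 and 134.5 CPM in si-control. The 0 h values were 9.55 and 7.70 CPM in si-BRG1, 29.7 and 32.2 CPM in si-CBX3, 37.9 and 45.0 CPM in si-FOXA1 and 23.6 and 18.4 CPM in si-control. No group of treated libraries overlapped its untreated group, and the 2 treated si-control libraries were the highest of all 16. R5020 raised CYP1A1 5.74-fold in si-BRG1 (log2 2.52 ± 0.14, adjusted p = 1.66e-10), 2.23-fold in si-CBX3 (1.16 ± 0.13, adjusted p = 9.85e-07), 1.64-fold in si-FOXA1 (0.71 ± 0.12, adjusted p = 0.000204) and 6.61-fold in si-control (2.73 ± 0.13, adjusted p = 4.11e-11).

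The smaller CYP1A1 responses in si-CBX3 and si-FOXA1 passed the test of the difference itself. The response minus that in si-control was -1.56 ± 0.18 on the log2 scale in si-CBX3 (adjusted p = 3.41e-05) and -2.01 ± 0.18 in si-FOXA1 (adjusted p = 4.23e-07), and both calls held when any 1 library was left out. In si-BRG1 the difference in response was -0.20 (95% interval -0.59 to 0.18, adjusted p = 0.552). The basal level moved in opposite directions: compared with si-control it was 2.44-fold lower in si-BRG1 (log2 -1.28 ± 0.14, adjusted p = 4.23e-06), and 1.47-fold higher in si-CBX3 (adjusted p = 0.00136) and 1.97-fold higher in si-FOXA1 (adjusted p = 2.68e-06). Between sets counted with one command, CYP1A1 was 1.34-fold higher in si-FOXA1 than in si-CBX3 at 0 h (adjusted p = 0.00708), a call lost without the first si-CBX3 library (adjusted p = 0.0628) or the second si-FOXA1 library (adjusted p = 0.104).

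CYP1B1 had its lowest treated levels in si-control, where CYP1A1 had its highest. At 0 h both genes were higher in si-CBX3 and si-FOXA1 than in si-control. After 6 h CYP1B1 stood at 410 and 502 CPM in si-BRG1, 700.3 and 701 CPM in si-CBX3, 263 and 231 CPM in si-FOXA1 and 108 and 120 CPM in si-control. Untreated libraries had 143 and 133 CPM in si-BRG1, 295 and 299 CPM in si-CBX3, 194 and 205 CPM in si-FOXA1 and 70.7 and 86.4 CPM in si-control. Every knockdown library, treated or not, lay above all 4 si-control libraries. R5020 raised it 3.30-fold in si-BRG1 (log2 1.72 ± 0.10, adjusted p = 6.88e-10), 2.36-fold in si-CBX3 (1.24 ± 0.10, adjusted p = 3.62e-08), 1.24-fold in si-FOXA1 (0.31 ± 0.10, adjusted p = 0.0233) and 1.45-fold in si-control (0.53 ± 0.10, adjusted p = 0.000541). The si-FOXA1 call was lost without either 0 h library or without the first 6 h library, with log2 values of 0.21 to 0.40 over all such fits.

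The response of CYP1B1 was larger than in si-control by 1.19 ± 0.15 on the log2 scale in si-BRG1 (adjusted p = 0.000694) and by 0.70 ± 0.14 in si-CBX3 (adjusted p = 0.00541), and both calls held when any 1 library was left out. In si-FOXA1 the difference was -0.23 (95% interval -0.53 to 0.08, adjusted p = 0.268). At 0 h CYP1B1 was 1.76-fold higher in si-BRG1 (adjusted p = 2.43e-05), 3.78-fold higher in si-CBX3 (adjusted p = 4.15e-10) and 2.54-fold higher in si-FOXA1 (adjusted p = 4.95e-09) than in si-control. Within one counting command it was lower in si-FOXA1 than in si-CBX3 (log2 -0.57 ± 0.10, adjusted p = 0.000104).

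**Figure D2:**
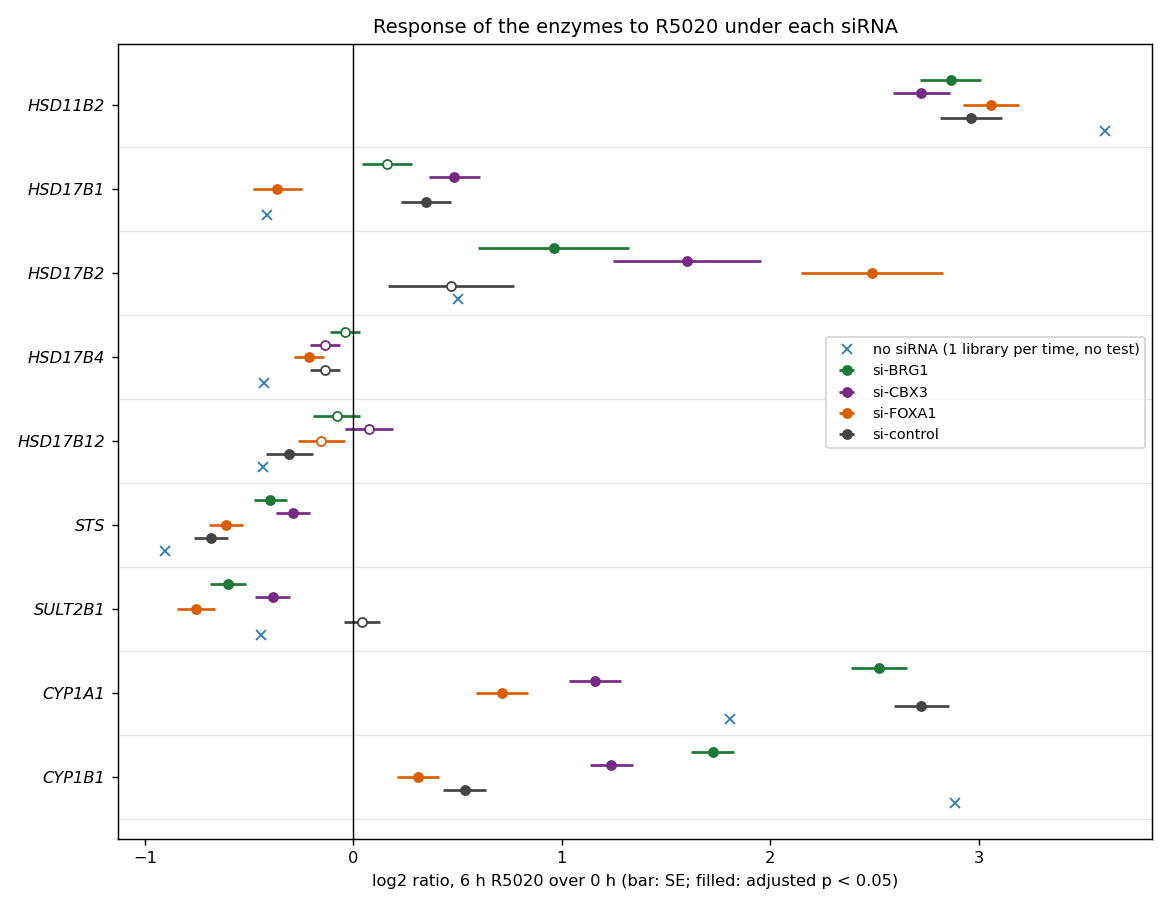
Log2 ratio of 6 h R5020 over 0 h (x axis) of each enzyme under each siRNA, with the SE as bars and filled points for an adjusted p below 0.05; crosses are untransfected cells (a single library at each time, not tested). HSD11B2 lies between 2.73 and 3.06 under all 4 siRNAs, whereas CYP1A1 runs from 0.71 in si-FOXA1 up to 2.73 in si-control and CYP1B1 from 0.31 in si-FOXA1 up to 1.72 in si-BRG1.

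In cells without siRNA the CYP1 genes were both higher after R5020. CYP1B1 was at 40.6 RPKM after 6 h and 5.54 RPKM at 0 h, which is 7.38-fold in CPM of estimated reads (log2 2.88, exact binomial 95% interval 2.83 to 2.94, counting error only). CYP1A1 was at 1.13 RPKM after 6 h and 0.417 RPKM at 0 h, a log2 ratio of 0.59 with a pseudocount of 1 and of 1.80 in CPM of estimated reads (exact binomial 95% interval 1.54 to 2.07), since a pseudocount shrinks ratios of low values. The CYP1B1 ratio without siRNA was above those under all 4 siRNAs, and no test of that difference is possible with 1 library per time. CYP1A1 had 3.26 CPM of estimated reads after 6 h without siRNA, beside 134 to 144 CPM in si-control, from another quantification that was normalised separately.

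No member had a BRG1 peak within 5 kb of its outermost annotated start in either list, of 6180 peaks after 30 min of R5020 and 2288 at 0 min. CYP1B1, whose response was larger in si-BRG1 than in si-control, held 3 BRG1 peaks inside its gene body after 30 min and none at 0 min. In hg19 these lie at chr2:38303237-38304635, chr2:38323180-38324150 and chr2:38325761-38326601, with the authors' peak scores 82.9, 104 and 84.5, all above the list median of 69.7. The first covers the start of transcript ENST00000260630.3, which carried 70.7% of the gene's estimated reads after 6 h and 57.1% at 0 h without siRNA, and overlaps an exon. The other peaks lie in an intron of a longer transcript, ENST00000494864.1, that starts further upstream.

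HSD17B4 had a peak after 30 min at chr5:118871512-118872198 (score 62.5), over an exon and 47 bases from the start of the internal transcript ENST00000503310.1, and another 33.1 kb upstream of the gene. ENST00000503310.1 carried only 0.174% of the gene's estimated reads after 6 h and 0.295% at 0 h without siRNA. HSD17B12 had an intronic peak at 0 min at chr11:43823869-43825357 (score 53.2) and none inside the gene after 30 min. Counting any annotated transcript start within 5 kb, a rule chosen after the peaks were seen, 2 members had a peak after 30 min and 0 at 0 min. Each list comes from 1 library, the lists differ in length, and a listed peak at one time only was not tested as a change in binding.

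**Figure D3:**
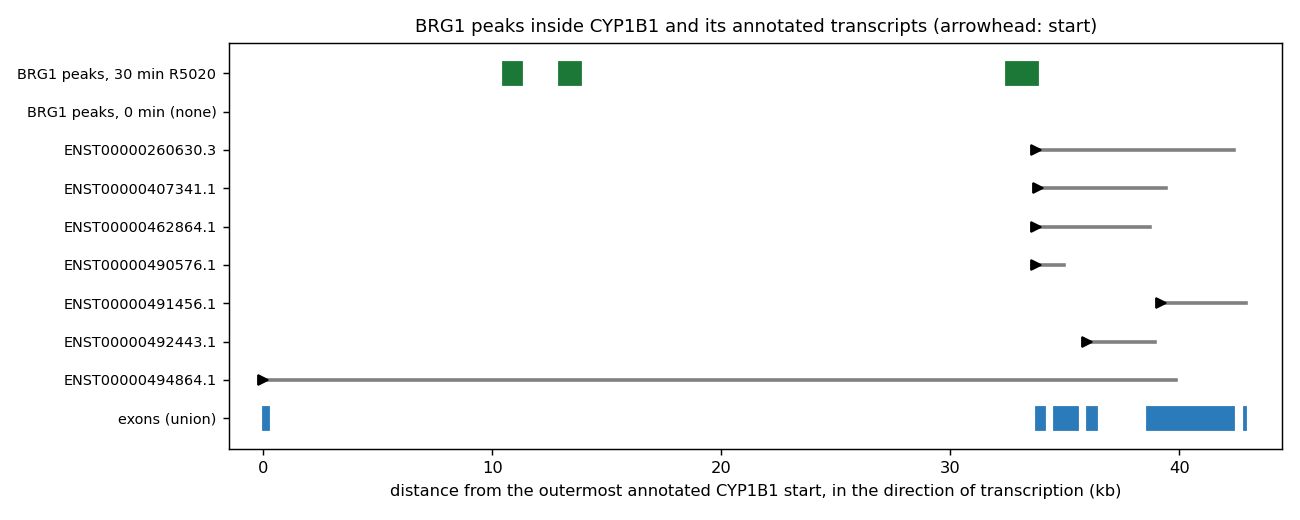
BRG1 peaks inside CYP1B1 (green, 30 min of R5020 above 0 min) over its annotated transcripts (grey, arrowhead at the start) and exons (blue); the x axis is the distance in kb from the outermost start along the gene. The 3 peaks are listed after 30 min only, and the rightmost covers the start of ENST00000260630.3.

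STS, steroid sulfatase, which frees oestrone and DHEA from their sulfates, fell with R5020 under every siRNA. After 6 h it was at 40.7 and 41.5 CPM in si-BRG1, 19.6 and 21.1 CPM in si-CBX3, 28.1 and 27.0 CPM in si-FOXA1 and 32.1 and 28.1 CPM in si-control. At 0 h it was at 51.9 and 56.5 CPM in si-BRG1, 25.0 and 24.7 CPM in si-CBX3, 42.9 and 41.4 CPM in si-FOXA1 and 46.4 and 50.2 CPM in si-control. Treated libraries were below untreated ones for each siRNA, without overlap. The log2 change was -0.40 ± 0.08 in si-BRG1 (adjusted p = 0.00072), -0.29 ± 0.08 in si-CBX3 (adjusted p = 0.00967), -0.61 ± 0.08 in si-FOXA1 (adjusted p = 1.2e-05) and -0.68 ± 0.08 in si-control (adjusted p = 3.42e-06).

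The si-CBX3 decrease in STS lost its call without the first library at either time (adjusted p = 0.0552 and 0.167). It was smaller than that in si-control by a log2 difference of 0.39 ± 0.12 (adjusted p = 0.0424), a call lost with the replicate as a block (adjusted p = 0.0582) and in 9 of 16 fits with 1 library left out (up to 0.189). At 0 h STS was 1.94-fold lower in si-CBX3 than in si-control (log2 -0.96 ± 0.08, adjusted p = 5e-08) and 1.70-fold higher in si-FOXA1 than in si-CBX3 (adjusted p = 3.65e-07). It was slightly lower in si-FOXA1 than in si-control (log2 -0.20 ± 0.08, adjusted p = 0.0357, up to 0.171 without 1 library), and in si-BRG1 the log2 difference was 0.17 ± 0.08 (adjusted p = 0.132). Without siRNA it was at 0.293 RPKM after 6 h and 0.553 RPKM at 0 h, a log2 ratio of -0.26 with a pseudocount of 1 and of -0.90 in CPM of estimated reads, with no replicate.

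SULT2B1, a sulfotransferase for cholesterol and 3-beta-hydroxysteroids, fell with R5020 in each knockdown, while its values overlapped in si-control. After 6 h it was at 18.1 and 15.96 CPM in si-BRG1, 27.6 and 27.8 CPM in si-CBX3, 9.37 and 10.1 CPM in si-FOXA1 and 23.2 and 20.2 CPM in si-control. At 0 h it was at 25.2 and 26.5 CPM in si-BRG1, 36.5 and 36.1 CPM in si-CBX3, 16.1 and 16.9 CPM in si-FOXA1 and 20.6 and 21.6 CPM in si-control. The libraries of each knockdown separated by time, and those of si-control did not. The log2 change was -0.60 ± 0.09 in si-BRG1 (adjusted p = 3.2e-05), -0.39 ± 0.09 in si-CBX3 (adjusted p = 0.00151), -0.76 ± 0.09 in si-FOXA1 (adjusted p = 4.43e-06) and 0.04 ± 0.09 in si-control (adjusted p = 0.76).

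SULT2B1 was the member whose response differed from si-control in all 3 knockdowns, in tests that share the si-control libraries. The difference was a log2 value of -0.64 ± 0.12 in si-BRG1 (adjusted p = 0.00881), -0.43 ± 0.12 in si-CBX3 (adjusted p = 0.0378) and -0.80 ± 0.13 in si-FOXA1 (adjusted p = 0.000191). The si-BRG1 call was lost without the first si-control library at 6 h (adjusted p = 0.0502), and the si-CBX3 call was lost without the filter on low counts (adjusted p = 0.0753), with the replicate as a block (0.0519) and in 11 of 16 fits with 1 library left out (up to 0.231). At 0 h SULT2B1 was 1.72-fold higher in si-CBX3 (adjusted p = 9.97e-07), 1.22-fold higher in si-BRG1 (adjusted p = 0.0178) and 1.28-fold lower in si-FOXA1 (adjusted p = 0.00152) than in si-control. The si-BRG1 call was lost without the filter (adjusted p = 0.0609) and without either untreated si-BRG1 library (0.0515 and 0.126) or the first untreated si-control library (0.131). SULT2B1 was 2.20-fold lower in si-FOXA1 than in si-CBX3 (adjusted p = 6.8e-09). Without siRNA SULT2B1 was at 4.61 RPKM after 6 h and 6.31 RPKM at 0 h, with no replicate. The single transcript ENST00000201586.2 held 93.2% of its reads at 6 h and 99.3% at 0 h. The log2 ratio in CPM of estimated reads was -0.445. That direction is the same as the decrease in each knockdown, whereas the response in si-control was not called (log2 0.04). The ratio without siRNA comes from another quantification that was normalised separately. There HSD17B1, HSD17B4 and HSD17B12 had similar log2 ratios (-0.414, -0.429 and -0.436). Its difference from the SULT2B1 responses under siRNA was not tested.

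HSD17B1, which reduces oestrone to oestradiol, separated the siRNAs more by level than by response. After 6 h it was at 31.0 and 24.3 CPM in si-BRG1, 34.2 and 30.0 CPM in si-CBX3, 45.7 and 58.5 CPM in si-FOXA1 and 52.0 and 55.9 CPM in si-control. At 0 h it was at 25.3 and 24.1 CPM in si-BRG1, 22.4 and 23.5 CPM in si-CBX3, 65.0 and 69.2 CPM in si-FOXA1 and 39.9 and 44.9 CPM in si-control. The untreated si-FOXA1 libraries were the highest of all 16 and the si-BRG1 and si-CBX3 libraries the lowest. In untreated cells HSD17B1 was 1.72-fold lower with si-BRG1 (log2 -0.78 ± 0.12, adjusted p = 0.000156), 1.85-fold lower in si-CBX3 (-0.89 ± 0.12, adjusted p = 1.02e-05) and 1.58-fold higher in si-FOXA1 (0.66 ± 0.12, adjusted p = 8.63e-05) than in si-control.

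With R5020, HSD17B1 rose by 0.48 ± 0.12 on the log2 scale in si-CBX3 (adjusted p = 0.00409) and by 0.35 ± 0.12 in si-control (adjusted p = 0.0288), and fell by 0.36 in si-FOXA1 (log2 -0.36 ± 0.12, adjusted p = 0.021). In si-BRG1 the libraries overlapped (log2 0.16 ± 0.12, adjusted p = 0.338). The si-control and si-FOXA1 calls were each lost in some fits with 1 library left out (adjusted p up to 0.234 and 0.266), but the difference between them held in all of these fits (log2 -0.71 ± 0.17 in si-FOXA1 minus si-control, adjusted p = 0.00434). Within one counting command, HSD17B1 was 2.93-fold higher in si-FOXA1 than in si-CBX3 at 0 h (adjusted p = 9.47e-09). The antisense gene HSD17B1-AS1 had 917 to 2663 fragments in strand-specific counts. HSD17B1 also has a closely related pseudogene, and reads shared with that copy, which may affect its level, were not measured. Without siRNA HSD17B1 was at 26.7 RPKM after 6 h and 34.8 RPKM at 0 h, with no replicate. The log2 ratio in CPM of estimated reads was -0.414. That direction is opposite to the rises in si-control and si-CBX3 and the same as the decrease in si-FOXA1. The ratio without siRNA comes from another quantification that was normalised separately, and its difference from the responses under siRNA was not tested.

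HSD17B2, which oxidises oestradiol to oestrone and so opposes HSD17B1, was the least expressed member, with 16 to 99 fragments per library. After 6 h it was at 0.886 and 0.413 CPM in si-BRG1, 1.19 and 0.713 CPM in si-CBX3, 1.19 and 1.65 CPM in si-FOXA1 and 1.13 and 1.04 CPM in si-control. At 0 h it was at 0.343 and 0.304 CPM in si-BRG1, 0.326 and 0.294 CPM in si-CBX3, 0.231 and 0.274 CPM in si-FOXA1 and 0.784 and 0.786 CPM in si-control. The untreated knockdown libraries were below both untreated si-control libraries, and the 6 h values of the siRNAs overlapped in part. Before R5020 it was 2.41-fold lower in si-BRG1 (adjusted p = 0.0125, up to 0.083 without 1 library), 2.52-fold lower in si-CBX3 (adjusted p = 0.00431) and 3.10-fold lower in si-FOXA1 (adjusted p = 0.000781) than in si-control.

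R5020 raised HSD17B2 5.61-fold in si-FOXA1 (log2 2.49 ± 0.34, adjusted p = 1.89e-05) and 3.04-fold in si-CBX3 (1.60 ± 0.35, adjusted p = 0.00155). In si-BRG1 the log2 change was 0.96 ± 0.36 (adjusted p = 0.0489), which DESeq2 placed at 0.0697 and which was 0.35 without the first 6 h library (adjusted p = 0.536), and in si-control it was 0.47 ± 0.30 (adjusted p = 0.244). The response in si-FOXA1 exceeded that in si-control by 2.02 ± 0.47 on the log2 scale (adjusted p = 0.0039), a call kept whichever library was left out. For si-CBX3 the corresponding difference was 1.13 (95% interval 0.14 to 2.12, adjusted p = 0.154). Without siRNA it was at 0.442 RPKM after 6 h and 0.359 RPKM at 0 h.

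HSD17B4, the peroxisomal multifunctional enzyme of beta-oxidation that also oxidises oestradiol, and HSD17B12, which reduces 3-ketoacyl-CoA in fatty acid elongation as well as oestrone, varied least. HSD17B4 ranged over 105 to 197 CPM and HSD17B12 over 83.4 to 129 CPM in all 16 libraries. The low HSD17B4 values were those of si-FOXA1, at 115 and 105 CPM after 6 h and 126 and 129 CPM at 0 h, below every library of the other siRNAs. At 0 h HSD17B4 was 1.51-fold lower in si-FOXA1 than in si-control (log2 -0.59 ± 0.07, adjusted p = 1.35e-06) and 1.46-fold lower than in si-CBX3 (adjusted p = 4.91e-06). Its response to R5020 passed the test in si-FOXA1 (log2 -0.21 ± 0.07, adjusted p = 0.0288, up to 0.186 without 1 library) and not in si-BRG1 (-0.04), si-CBX3 (-0.14) or si-control (-0.13). No test separated the knockdowns from si-control in this response, with 95% intervals of the log2 difference of -0.12 to 0.31 in si-BRG1, -0.22 to 0.21 in si-CBX3 and -0.29 to 0.14 in si-FOXA1. Without siRNA HSD17B4 was at 99.7 RPKM after 6 h and 143 RPKM at 0 h, a log2 ratio of -0.43 in CPM of estimated reads (exact binomial 95% interval -0.46 to -0.40), with no replicate. That ratio is further from 0 than the responses under any of the 4 siRNAs. It comes from another quantification that was normalised separately, in which HSD17B1, HSD17B12 and SULT2B1 had similar log2 ratios (-0.414, -0.436 and -0.445). The median there over 18455 genes was 0.04 in RPKM with a pseudocount of 1, where HSD17B4 was at -0.52. Of the HSD17B4 reads, ENST00000518349.1 and ENST00000512644.1 held 39.0% and 16.8% at 0 h and 2.44% and 0.663% after 6 h. The 324-base ENST00000507695.1 rose from 5143 to 6056 reads and held 74.7 of the 99.7 RPKM after 6 h. The decrease was thus not shared by every transcript.

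HSD17B12 at 0 h was at 102 and 115 CPM in si-BRG1, 98.4 and 100.1 CPM in si-CBX3, 98.4 and 96.0 CPM in si-FOXA1 and 90.9 and 129 CPM in si-control. The second untreated si-control library stood apart at the top of all 16. The decrease with R5020 in si-control (log2 -0.31 ± 0.11, adjusted p = 0.0425) rested on it: without that library the change was -0.03 (adjusted p = 0.81). Without the first untreated si-control library, HSD17B12 was instead called lower than in si-control in all 3 knockdowns at 0 h, with log2 values of -0.28, -0.43 and -0.48 in si-BRG1, si-CBX3 and si-FOXA1. Without the filter on low counts it was also called lower in si-FOXA1 (log2 -0.25, adjusted p = 0.00785) and its response was called larger in si-CBX3 than in si-control (log2 0.40, adjusted p = 0.0182). Without siRNA HSD17B12 was at 22.4 RPKM after 6 h and 30.2 RPKM at 0 h, a log2 ratio of -0.44 in CPM of estimated reads (exact binomial 95% interval -0.50 to -0.37), with no replicate.

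**Figure D4:**
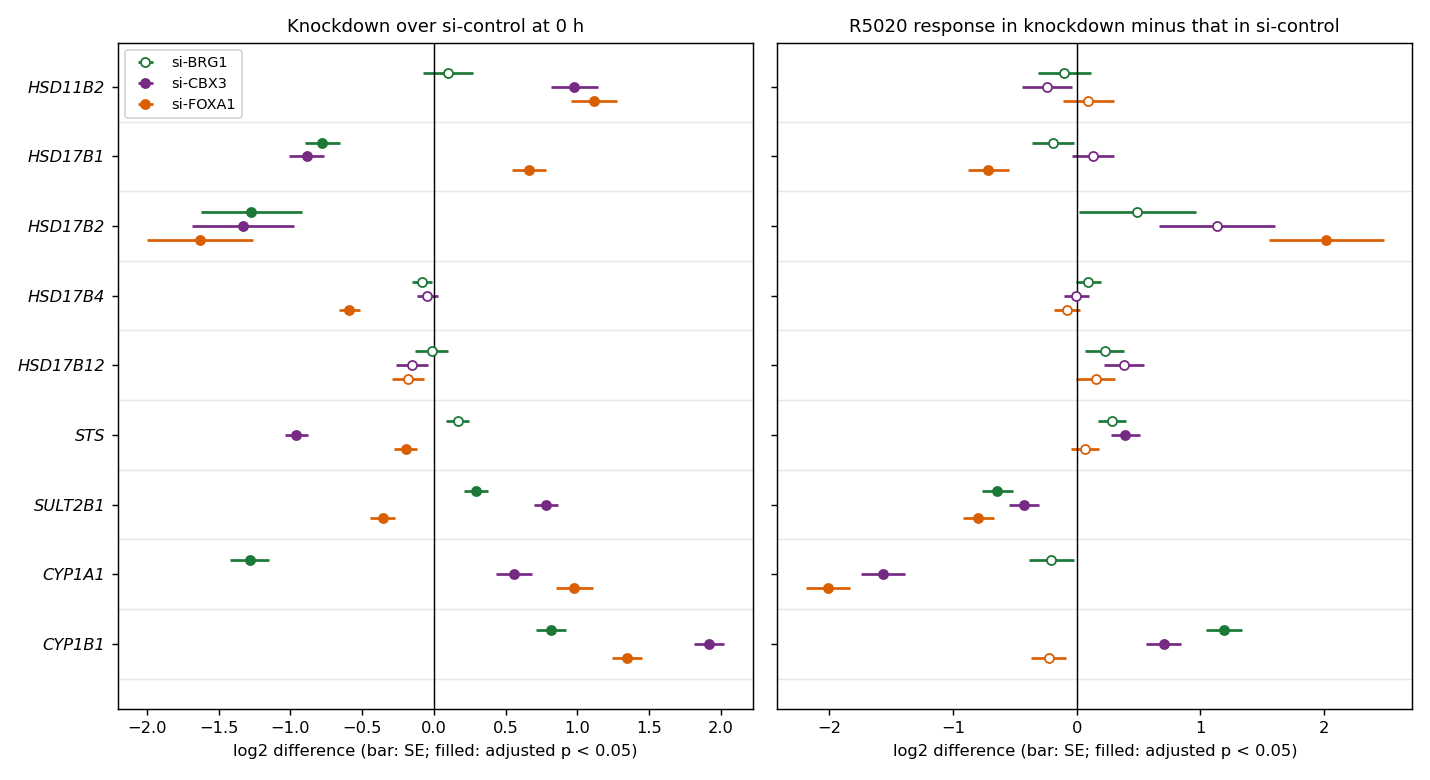
Left, log2 difference of each knockdown over si-control at 0 h; right, R5020 response in each knockdown minus that in si-control on the log2 scale. Bars are SE, points are filled for an adjusted p below 0.05, and in the right panel SULT2B1 is filled for all 3 knockdowns and HSD11B2, HSD17B4 and HSD17B12 for none.

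At 0 h, si-BRG1 had 2 of the 9 members above si-control and 3 below it, where 15.1% of all genes were above and 13.4% below (28.5% called). For si-CBX3, 4 members were above and 3 below, beside 28.1% and 26.0% of all genes (54.1% called), and for si-FOXA1, 4 were above and 4 below, beside 40.0% and 33.5% (73.5% called). Against si-CBX3, si-FOXA1 had 3 members above and 3 below, beside 34.2% and 30.6% (64.8% called). The response to R5020 differed from si-control in 2 members in si-BRG1, 1 positive and 1 negative on the log2 scale, beside 1.49% positive and 3.72% negative of all genes (5.22% called). In si-CBX3 it differed in 4 members, 2 positive and 2 negative, beside 4.63% and 4.36% (8.99% called), and in si-FOXA1 in 4 members, 1 positive and 3 negative, beside 13.0% and 15.7% (28.7% called). The comparisons against si-control share its libraries and are not independent of each other. The median log2 difference at 0 h over the members was -0.02 in si-BRG1 (0.03 over all genes), -0.05 in si-CBX3 (0.05) and -0.18 in si-FOXA1 (0.11).

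Per length, CYP1B1 had the highest median level over the 16 libraries, at 36.3 FPKM (CPM per kilobase of exon), followed by HSD17B4 at 21.2, CYP1A1 at 13.1, HSD17B12 at 11.5, SULT2B1 at 7.48, HSD17B1 at 6.55, STS at 5.58, HSD11B2 at 2.99 and HSD17B2 at 0.278 FPKM. The ranges of neighbours in this order overlapped for all but HSD17B2, whose highest value of 0.612 FPKM was just below the lowest of HSD11B2, 0.613 FPKM. The order was another in si-control. There HSD17B4 had a mean of 23.3 FPKM and CYP1B1 of 13.1 FPKM at 0 h. After 6 h CYP1A1 was at 40.5, HSD17B4 at 21.2 and CYP1B1 at 18.9 FPKM. Across libraries the most variable members were HSD11B2, with a 21.0-fold range, and CYP1A1, with an 18.6-fold range of CPM, and the least variable was HSD17B12, with a 1.55-fold range.

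Some other genes followed the members closely over the 16 libraries, by Pearson's r of log2 CPM, as a description of libraries that share their groups. HSD11B2 was most like ATP8B3 (r = 0.994) and ZDHHC14 (0.993), SULT2B1 like SPDEF (0.979) and PCDHGA1 (0.966), and CYP1B1 like REPS1 (0.977) and MAPK6 (0.968). CYP1A1 was most like ERRFI1 (0.941) and ADISSP (0.911), STS like CACNA2D1 (0.946) and CNNM4 (0.944), and HSD17B1 like PARVB (0.953) and PORCN (0.945). For HSD17B4 these were PAAF1 (0.988) and VPS11 (0.984), for HSD17B2 RPS6KA2 (0.915) and GCLC (0.894), and for HSD17B12, with the weakest likeness, NUDT21 (0.831) and SOCS5 (0.824).

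Around the members, 6 pathway lists were examined, whose counts are set beside the shares of all 18806 genes tested. Of 8 genes of the aryl hydrocarbon receptor pathway, all tested, 5 were above and 1 below si-control in si-FOXA1 at 0 h, where 40.0% of all genes were above and 33.5% below (73.5% called), so the number called was near the background. AHR, the receptor, was at 95.9 ± 3.13 CPM in si-FOXA1 and 52.4 ± 2.13 CPM in si-control (SD, n = 2 each), a log2 difference of 0.87 ± 0.10 (adjusted p = 6.98e-07). AHRR, its repressor, differed by 1.11 ± 0.13 (adjusted p = 8.92e-07), and ARNT2, a relative of its partner, was at 4.74 ± 0.167 CPM in si-FOXA1 and 0.780 ± 0.105 CPM in si-control (log2 2.61 ± 0.16, adjusted p = 2.32e-10). The list's median log2 difference was 0.65, beside 0.11 over all genes.

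With R5020, 3 of the 8 rose and 2 fell in si-BRG1, 2 rose and 4 fell in si-CBX3, and 2 rose and 2 fell in both si-FOXA1 and si-control, beside 35.7%, 41.0%, 38.8% and 37.6% of all genes called for si-BRG1, si-CBX3, si-FOXA1 and si-control. TIPARP, which encodes an ADP-ribosyltransferase that represses the receptor, rose under every siRNA, by 2.51 ± 0.07 on the log2 scale in si-BRG1, 1.96 ± 0.07 in si-CBX3, 1.71 ± 0.06 in si-FOXA1 and 2.03 ± 0.07 in si-control, with adjusted p of at most 2.61e-12. AHR itself moved by -0.18 ± 0.10 in si-control (adjusted p = 0.176). CYP1A2, the neighbour and close relative of CYP1A1, was lower after R5020 in si-CBX3 (log2 -0.38 ± 0.12, adjusted p = 0.0204), si-FOXA1 (-0.35 ± 0.14, adjusted p = 0.0498) and si-control (-0.41 ± 0.15, adjusted p = 0.0421), where CYP1A1 was higher. At 0 h CYP1A2 was at 8.82 ± 0.304 CPM in si-CBX3, 4.15 ± 0.114 CPM in si-FOXA1, 1.08 ± 0.135 CPM in si-BRG1 and 2.55 ± 0.123 CPM in si-control.

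Of 9 genes of oestrogen hydroxylation and catechol clearance, 5 were tested, and 2 rose and 1 fell with R5020 in si-CBX3, si-FOXA1 and si-control, while 2 rose and 0 fell in si-BRG1. Of all genes, 18.6% to 20.4% rose and 17.1% to 20.5% fell in these 4 comparisons. NQO2, a quinone reductase, rose by 0.35 to 0.44 on the log2 scale under all 4 siRNAs, with adjusted p of at most 0.0117. NQO1, a related reductase, changed by -0.04 ± 0.10 in si-control (adjusted p = 0.808). GSTP1, a glutathione transferase, was near 0, at 0.265 ± 0.134 CPM after 6 h and 0.0484 ± 0.0202 CPM at 0 h in si-control (SD, n = 2 each).

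Among 19 other ketosteroid reductases and dehydrogenases, 17 were matched and 13 tested, and 5 rose and 0 fell with R5020 in si-control, beside 6 and 0 in si-BRG1, 7 and 0 in si-CBX3 and 7 and 1 in si-FOXA1. The shares of all genes that rose were 18.6% in si-BRG1, 20.4% in si-CBX3, 19.1% in si-FOXA1 and 19.5% in si-control, and 17.1% to 20.5% fell. SRD5A1, a steroid 5-alpha-reductase that acts on testosterone and progesterone, was at 41.0 ± 0.683 CPM after 6 h and 26.5 ± 0.168 CPM at 0 h in si-FOXA1, and at 19.8 ± 0.349 CPM after 6 h and 10.2 ± 0.929 CPM at 0 h in si-control (SD, n = 2 each). Its log2 rise was 0.72 ± 0.08 in si-BRG1, 1.04 ± 0.08 in si-CBX3, 0.63 ± 0.07 in si-FOXA1 and 0.96 ± 0.08 in si-control. CBR1, a carbonyl reductase, rose by 1.12 ± 0.09 in si-BRG1, 1.06 ± 0.09 in si-CBX3 and 1.49 ± 0.09 in si-control, and changed by 0.17 ± 0.09 in si-FOXA1 (adjusted p = 0.164).

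At 0 h, 1 of these 13 genes was higher and 7 lower in si-FOXA1 than in si-control, beside 40.0% and 33.5% of all genes, with a median log2 difference of -0.65 (0.11 over all genes). The number called, 8 of 13, was below the background of 73.5%. HSD17B7, which acts in cholesterol synthesis and on oestrone, was at 5.05 ± 0.546 CPM in si-FOXA1, 12.4 ± 0.126 CPM in si-CBX3 and 24.7 ± 1.46 CPM in si-control. SRD5A3, which acts in dolichol synthesis, was at 17.1 ± 0.0484 CPM in si-FOXA1 and 42.8 ± 2.14 CPM in si-control (log2 -1.32 ± 0.08, adjusted p = 1.41e-10). SRD5A1 was the exception, 2.60-fold higher in si-FOXA1 than in si-control (log2 1.38 ± 0.08, adjusted p = 1.34e-10).

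Of 16 genes of steroid conjugation and sulfate supply, 9 were tested, and 1 was higher and 7 lower in si-FOXA1 than in si-control at 0 h, beside 3 higher and 2 lower in si-BRG1 and 3 higher and 1 lower in si-CBX3. Of all genes, 73.5% were called in si-FOXA1 (40.0% higher, 33.5% lower), 28.5% in si-BRG1 and 54.1% in si-CBX3. PAPSS2, which makes the sulfate donor that SULT2B1 uses, was at 72.4 ± 4.19 CPM in si-BRG1, 74.4 ± 1.45 CPM in si-CBX3, 6.30 ± 0.0458 CPM in si-FOXA1 and 28.5 ± 1.62 CPM in si-control. SULT2B1 was likewise higher in si-CBX3 and lower in si-FOXA1, and its call in si-BRG1 was lost in 3 fits with 1 library left out. PAPSS1, the other synthase of that donor, rose with R5020 by 0.57 ± 0.07 in si-BRG1, 0.23 ± 0.07 in si-CBX3 and 0.56 ± 0.07 in si-control, and changed by -0.00 ± 0.07 in si-FOXA1 (adjusted p = 0.992). SULT1A1, a phenol sulfotransferase that also acts on oestrogens, was 1.05 ± 0.09 higher on the log2 scale in si-FOXA1 than in si-control (adjusted p = 2.12e-08), and has near-identical paralogues. UGT2B15, a glucuronosyltransferase of androgens with close paralogues, was at 0 CPM in the 4 si-FOXA1 libraries and at 0.653 ± 0.0530 CPM in si-control at 0 h. With R5020, 1 of the 9 rose and 1 fell in si-BRG1 and si-control, 1 rose in si-CBX3 and 2 fell in si-FOXA1, below the 35.7% to 41.0% of all genes called.

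Of 13 genes of steroid hormone synthesis, 5 were tested, and 1 rose and 0 fell with R5020 in si-control, beside 1 and 1 in si-BRG1, 2 and 0 in si-CBX3 and 0 and 3 in si-FOXA1. These small counts stand beside 37.6% of all genes called in si-control, 35.7% in si-BRG1, 41.0% in si-CBX3 and 38.8% in si-FOXA1. POR, the reductase that supplies electrons to CYP1A1, CYP1B1 and other microsomal cytochromes, was at 131 ± 10.8 CPM after 6 h and 163 ± 5.67 CPM at 0 h in si-FOXA1, and at 224 ± 4.79 CPM after 6 h and 164 ± 5.05 CPM at 0 h in si-control. Its log2 change was -0.32 ± 0.07 in si-FOXA1 (adjusted p = 0.00285) and 0.45 ± 0.07 in si-control (adjusted p = 0.000137). CYB5A, cytochrome b5, was lower at 0 h in all 3 knockdowns than in si-control, by log2 values of -0.39 in si-BRG1, -0.71 in si-CBX3 and -0.54 in si-FOXA1.

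Among 5 steroid receptors, all tested, 3 fell and 1 rose with R5020 in si-BRG1, 3 fell in both si-CBX3 and si-control, and 2 fell and 1 rose in si-FOXA1. In each of these comparisons 18.6% to 20.4% of all genes rose and 17.1% to 20.5% fell. PGR, the progesterone receptor through which R5020 acts, was at 208 ± 13.6 CPM after 6 h and 533.5 ± 24.9 CPM at 0 h in si-FOXA1, and at 97.3 ± 18.2 CPM after 6 h and 522 ± 69.1 CPM at 0 h in si-control. Its log2 change was -1.73 ± 0.14 in si-BRG1, -1.83 ± 0.14 in si-CBX3, -1.36 ± 0.14 in si-FOXA1 and -2.42 ± 0.14 in si-control, with adjusted p of at most 5.89e-07. NR3C2, the mineralocorticoid receptor that HSD11B2 shields, was at 9.65 ± 0.303 CPM after 6 h and 5.57 ± 0.00945 CPM at 0 h in si-BRG1, and at 4.60 ± 0.575 CPM after 6 h and 5.01 ± 0.726 CPM at 0 h in si-control. Its response in si-BRG1 exceeded that in si-control by a log2 value of 0.92 ± 0.16 (adjusted p = 0.00652). NR3C1, the glucocorticoid receptor whose ligand HSD11B2 inactivates, rose by 0.53 ± 0.08 in si-FOXA1 (adjusted p = 6.13e-05) and changed by -0.36 ± 0.08 in si-BRG1, -0.61 ± 0.08 in si-CBX3 and -0.68 ± 0.08 in si-control.

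**Figure D5:**
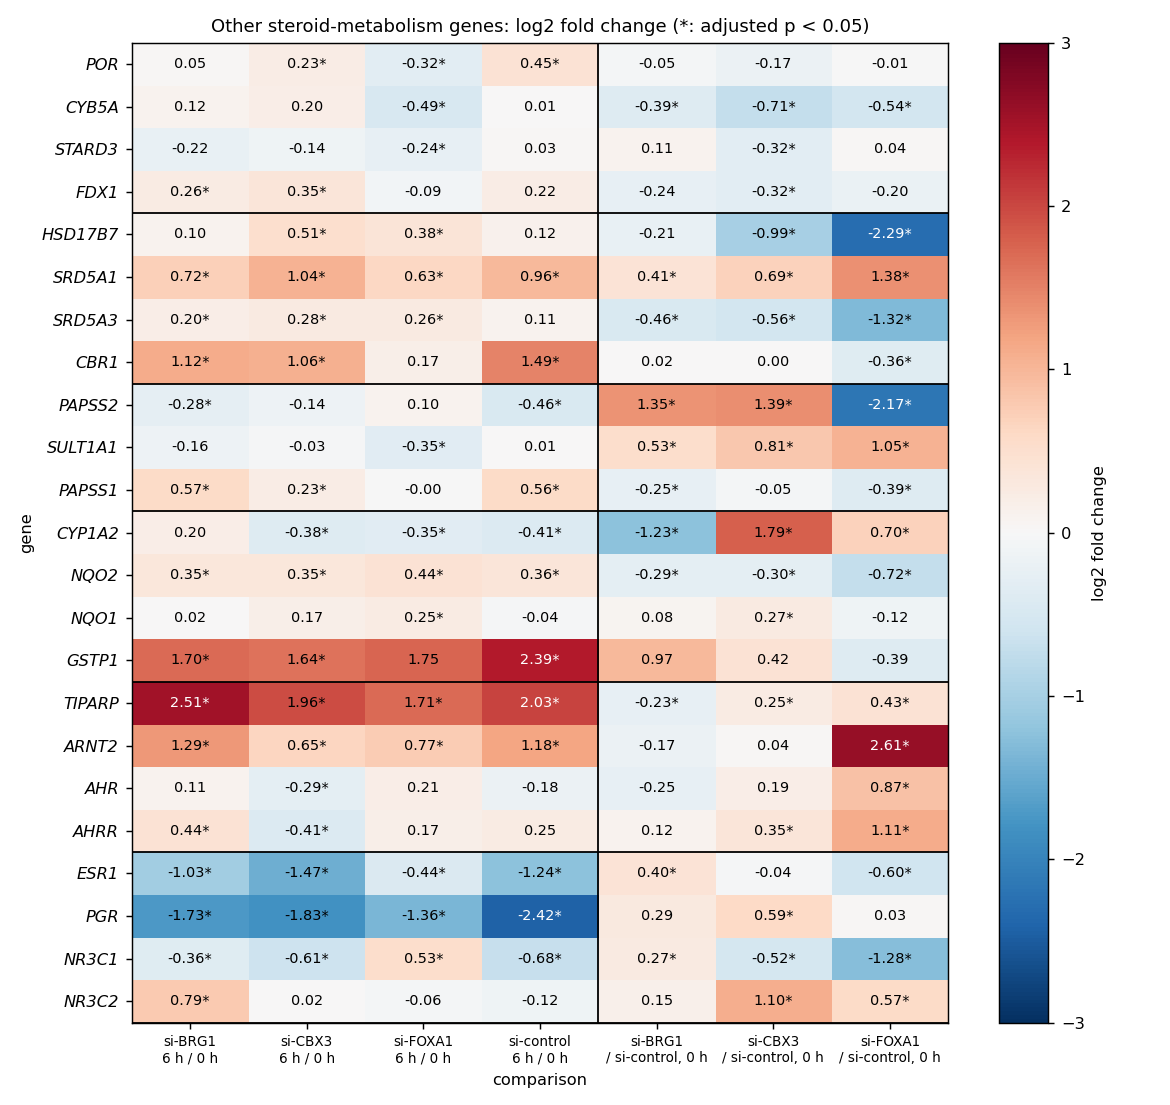
Log2 fold change of 23 other genes of steroid metabolism and signalling, for 6 h of R5020 over 0 h under each siRNA (left 4 columns) and for each knockdown over si-control at 0 h (right 3 columns); colour and number give the value, and a star an adjusted p below 0.05. TIPARP and SRD5A1 rise with R5020 under all 4 siRNAs and PGR falls under all 4.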

How the data were processed

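RNA was measured with a stranded poly(A) kit in 16 siRNA libraries and in 2 libraries without siRNA, and BRG1 by ChIP-seq in 2 libraries. Gene counts were made by the authors with featureCounts on hg19 and GENCODE v19, as fragments on the reverse strand, per the file headers, after steps with Trimmomatic and STAR that the submitters' processing notes list. The deposited transcript files of the cells without siRNA hold RPKM values and other estimated read numbers, made by the authors with software not named in the sources used here, and these were summed per gene. The deposited peak lists carry a score per peak, for which the submitters' processing notes list Bowtie 1.0.0 and HOMER.

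The deposited counts of 57820 genes were tested with edgeR 4.0.16 (R 4.3.3): TMM scaling, filterByExpr, glmQLFit with 1 mean for each of 8 groups (8 residual degrees of freedom), two-sided quasi-likelihood tests of 11 comparisons, and Benjamini-Hochberg adjustment over 18806 genes. The script was also run on simulated counts in which far fewer genes changed than were called in the comparisons here. That run does not show the error rate in these data. Symbols were matched for 89.9% of genes. Fragment counts are not independent molecules, so intervals on read ratios (95%, exact binomial) cover counting error only. The RPKM log2 ratio used a pseudocount of 1. Alternatives were DESeq2's size factors, DESeq2 1.42.0, no filter, a replicate block and leaving out each library.

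The members and lists were chosen with earlier results of these data known, and 2 genes of the pathway lists are not reported here. Named beside the members were the siRNA targets, the 4 genes of each pathway list with the lowest p over the comparisons, and the 2 genes most like each member. Levels per group cannot separate fewer cells of a type from less RNA per cell. Promoter windows were found for HSD17B4, STS, SULT2B1 and CYP1A1.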

Additional observations from a re-analysis of the deposited data

Results flagged for a closer look

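The R5020 response of 6 of the 9 enzymes differed between a knockdown and si-control by edgeR's quasi-likelihood test of the difference with Benjamini-Hochberg adjustment, which gave 10 differences in all. For CYP1A1 the response minus that in si-control was -1.565 on the log2 scale in si-CBX3 and -2.012 in si-FOXA1. For CYP1B1 it was 1.189 in si-BRG1 and 0.703 in si-CBX3. For SULT2B1 it was -0.641 in si-BRG1, -0.428 in si-CBX3 and -0.795 in si-FOXA1. HSD17B1 differed by -0.713 in si-FOXA1, HSD17B2 by 2.018 in si-FOXA1 and STS by 0.394 in si-CBX3. The si-CBX3 calls of STS and SULT2B1 were lost with the replicate as a block (adjusted p = 0.0582 and 0.0519) and in 9 and 11 of 16 fits with 1 library left out. Of all genes tested, 5.22% were called for this difference in si-BRG1, 8.99% in si-CBX3 and 28.7% in si-FOXA1. These tests share the si-control libraries. The share of all genes called in at least 1 of them was not computed, so the 6 of 9 has no background beside it. Libraries of si-CBX3 and si-FOXA1 and those of si-control come from counting commands with the same version, strand setting and annotation but another number of threads. A difference between these sets of libraries was not tested. FOXA1 itself fell with R5020 in si-control, with a log2 change of -1.12, and the part of that decrease in these differences was not tested.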

How the results depend on the processing

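With 2 libraries per group, calls near the threshold depended on single libraries. Each comparison was refitted 16 times with 1 library left out. The number of genes called for the R5020 response then ranged from 4818 to 8739 over the 4 siRNAs. At 0 h it ranged from 3246 to 6538 for si-BRG1, 8474 to 10881 for si-CBX3 and 12555 to 14357 for si-FOXA1 against si-control, and from 10427 to 12890 for si-FOXA1 against si-CBX3. For the differences in response it ranged from 147 to 2840 in si-BRG1, 825 to 2567 in si-CBX3 and 3639 to 6574 in si-FOXA1. DESeq2 called 1514 genes for the si-BRG1 difference, against 981 with edgeR. Members with a BRG1 peak after 30 min numbered 2 within 50 kb and 2 within 5 kb of any transcript start, against 0 within 5 kb of the outermost start.

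Over 99 member results, 1487 leave-one-out values kept their direction and their side of the threshold, 66 lost a call, 7 gained one and 24 changed sign, none of them from a called value. The ranges that crossed 0 were, for HSD11B2, -0.303 to 0.071 (difference in si-BRG1) and -0.026 to 0.213 (difference in si-FOXA1), for HSD17B1 -0.027 to 0.326 (response in si-BRG1), for HSD17B2 -0.124 to 0.975 (difference in si-BRG1), for HSD17B4 -0.122 to 0.035 (response in si-BRG1) and -0.049 to 0.081 (difference in si-CBX3), for STS -0.005 to 0.191 (difference in si-FOXA1) and for SULT2B1 -0.079 to 0.125 (response in si-control). For HSD17B12 they were -0.164 to 0.004 (response in si-BRG1), at 0 h -0.277 to 0.254 (si-BRG1), -0.432 to 0.099 (si-CBX3) and -0.477 to 0.054 (si-FOXA1), and -0.035 to 0.496 and -0.115 to 0.415 (differences in si-BRG1 and si-FOXA1). The HSD17B4 difference in si-CBX3, -0.004, was 0.004 with DESeq2 and with its size factors and 0.013 without the filter. The cause was not tested.

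Replicate numbers did not pair the libraries: same-numbered deviations correlated between -0.0458 and 0.0928. With the replicate as a block, 747 genes were called for the si-BRG1 difference, and 4 member calls were lost: HSD17B2 in si-BRG1 (adjusted p = 0.0509), HSD17B12 in si-control (0.0504) and the si-CBX3 differences of STS (0.0582) and SULT2B1 (0.0519).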
